A study of Mus musculus with 28 samples.

Results

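DNA transposons are mobile elements that were once cut out of one site and pasted into another by a transposase, an enzyme they encoded themselves or borrowed from a related copy. The mouse genome holds only fossils of them: mutated, truncated copies without any known active member. Most belong to the hAT superfamily, with the Charlie and MER5 groups and the rodent elements URR1A and URR1B, which carry no transposase of their own, or to the Tc1/mariner superfamily, with the Tigger and MER2 groups. KAP1, encoded by Trim28, is a corepressor that KRAB zinc finger proteins bring to DNA, where it recruits the machinery for H3K9me3 and DNA methylation. Endogenous retroviruses (LTR elements) and some LINE1 subfamilies are its best known targets in mouse embryonic stem cells (mESCs). The study found the least KAP1 on the youngest LINE members. DNA transposons are not counted among the targets.

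The DNA transposon fossils described here were the single annotated copies (integrants) of class DNA in the RepeatMasker track of the NCBIM37/mm9 genome that collected at least 16 reads summed over the 16 RNA-seq libraries. Of 159459 DNA transposon integrants in the track, 4099 (2.57%) passed, among 123904 of 3406390 LINE, SINE, LTR and DNA integrants that did. The series measured polyadenylated RNA of J1 mESCs, a 129S4/SvJae line, grown in 2i + LIF. The 3 genotypes were WT, DNMT TKO (knockout of Dnmt1, Dnmt3a and Dnmt3b, the DNA methyltransferases) and TET TKO (knockout of Tet1, Tet2 and Tet3, the enzymes that oxidise 5mC to 5hmC), and each was transduced with a lentiviral vector that held no hairpin (shEmpty) or one against Kap1 (shKap1). Cells were selected in 4 µg/mL puromycin and collected at day 5. WT and DNMT TKO had 3 libraries per vector and TET TKO had 2. Each knockout was 1 line, so a difference between genotypes cannot be told apart from a difference between lines. According to the study's methods, the libraries of a group came from independent experiments.

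Libraries held 18108431 to 29373696 reads on genes, and 3035 to 3537 of the 4099 integrants had a read in each. Trim28 fell from 1750 ± 207 to 165 ± 21.9 CPM (reads scaled to the library's gene reads, mean ± SD, n = 3) in WT, from 1830 ± 89.8 to 166 ± 3.84 in TET TKO (n = 2) and from 1870 ± 197 to 427 ± 91.5 in DNMT TKO (n = 3). The knockdown in DNMT TKO was thus weaker, by 1.28 ± 0.21 on the log2 scale (standard error, edgeR adjusted p = 0.0008), and this stands beside every comparison of knockdowns below. The summed level of 8 embryonic stem cell markers was lower after knockdown in every genotype, going from 3660 to 3870 CPM to 2210 to 2370 CPM in WT. Lists for trophoblast, primitive endoderm, mesoderm and fibroblasts summed to between 1.77 and 27.9 CPM in all groups, and some moved without overlap. The sum of primitive endoderm markers went from 5.95 to 9.98 CPM to 13.6 to 14.8 in WT, and rose without overlap in both knockouts as well. Not all its members rose. In TET TKO the means of Gata4 (7.7 to 9.25 CPM) and Sox17 (1.15 to 2.12) were higher. Those of Gata6 (0.995 to 0.586), Foxa2 (0.529 to 0.128) and Pdgfra (2.5 to 2.46) were not. Gata6 was also lower in WT (0.582 to 0.476) and Foxa2 in DNMT TKO (0.156 to 0.135). Mesoderm markers were lower after knockdown in each genotype, from 14.1 to 17.5 CPM to 4.75 to 5.22 in DNMT TKO. Within that list Hand1 went the other way in WT, from a mean of 0.0473 to 0.34 CPM, and in DNMT TKO, from 0.24 to 0.557. Mesp1, near 0, was higher in each genotype (0.0236 to 0.0849 CPM in WT). Fibroblast markers went from 5.68 to 8.29 CPM to 10.7 to 11.5 in DNMT TKO, but from 7.43 to 7.44 CPM to 4.72 to 5.19 in TET TKO. In WT this list held opposite changes, with Thy1 going from a mean of 0.913 to 2.16 CPM and Col1a1 from 2.42 to 0.987. So did the trophoblast list, with Krt7 going from 2.08 to 6.46 CPM and Eomes from 20.2 to 9.86. The 2 neural genes measured summed to 38.4 to 48.5 CPM in WT shEmpty and to 103 to 122 CPM in WT shKap1. The part of these shifts in the results was not tested. One of the 2 TET TKO shEmpty libraries, replicate 2, stood apart. Its DNA transposon reads in introns summed to 787 CPM, against 538 to 710 in the other 15 libraries and 570 in replicate 1, while its exonic sum was 796 against 815 in replicate 1, and a FordPrefect copy described below was also high in it alone. Its intronic sums were also above those of replicate 1 for LINE (1890 against 1350 CPM), SINE (11600 against 9180) and LTR integrants (3020 against 2360). The sums and single copies in TET TKO that depend on this library are also given without it below. Values without it rest on 1 TET TKO control, which is assumed to vary as the libraries of the other groups do.

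The 7 integrants whose sequences follow carry the patterns of this report. They are read on the strand of the integrant from the mm9 genome, in lower case with CG dinucleotides, the sites of DNA methylation in mammals, in capitals. The first integrant was silent in all control libraries and read in all knockdowns:
URR1A, chr7:20475076-20475279, minus strand, outside genes: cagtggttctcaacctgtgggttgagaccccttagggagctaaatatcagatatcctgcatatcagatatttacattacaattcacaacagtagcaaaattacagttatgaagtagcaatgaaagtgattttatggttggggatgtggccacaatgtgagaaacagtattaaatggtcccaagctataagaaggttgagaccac
The second was read almost only in DNMT TKO after Kap1 knockdown:
URR1B, chr9:98682742-98682943, plus strand, outside genes: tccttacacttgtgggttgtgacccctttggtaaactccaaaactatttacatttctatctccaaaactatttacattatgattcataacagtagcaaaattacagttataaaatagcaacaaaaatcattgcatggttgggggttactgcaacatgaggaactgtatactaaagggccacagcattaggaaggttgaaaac
The next pair responded differently to knockdown in DNMT TKO than in WT and lay on H3K9me3 regions:
URR1B, chr4:145041712-145041795, plus strand, outside genes: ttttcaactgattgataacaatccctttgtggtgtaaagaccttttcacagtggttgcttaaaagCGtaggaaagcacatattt
MER2, chr19:61261666-61261796, plus strand, outside genes: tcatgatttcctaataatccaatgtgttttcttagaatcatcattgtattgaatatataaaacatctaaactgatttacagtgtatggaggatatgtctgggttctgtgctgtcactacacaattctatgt
Another responded more strongly in TET TKO than in WT:
Tigger5, chr9:24600406-24600579, minus strand, outside genes: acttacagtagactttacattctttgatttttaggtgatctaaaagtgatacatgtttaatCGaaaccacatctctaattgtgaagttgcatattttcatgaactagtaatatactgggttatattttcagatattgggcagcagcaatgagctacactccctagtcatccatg
The next began 16 bp downstream of an LTR integrant that also responded:
MER20, chr5:125855920-125856039, plus strand, outside genes: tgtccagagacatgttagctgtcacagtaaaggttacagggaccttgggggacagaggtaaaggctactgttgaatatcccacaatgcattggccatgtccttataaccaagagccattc
The last was lost in both knockout lines whether or not Kap1 was knocked down:
MER5A, chrX:166417546-166417749, plus strand, intron of Mid1: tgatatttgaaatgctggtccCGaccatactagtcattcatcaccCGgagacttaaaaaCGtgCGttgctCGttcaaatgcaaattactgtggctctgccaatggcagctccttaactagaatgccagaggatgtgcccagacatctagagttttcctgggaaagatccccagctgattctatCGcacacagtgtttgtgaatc

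Of these 7 copies 4 held no CG, 2 held 1 and the MER5A in Mid1 held 6. Of 4090 fossils on assembled chromosomes, 1352 (33.1%) contained no CG, against 39.7% of all 157748 DNA transposon integrants there, and the median integrant had 0.65 CG per 100 bp and 40.1% GC. Marks of old transposition were scarce. An intact 8-bp duplication of the flanks, the scar hAT elements leave, was found for 0.547% of hAT integrants, and TA on both flanks, the scar of Tc1/mariner elements, for 0.865% of Tc1/mariner integrants. TA on both flanks was also found for 0.293% of hAT integrants, so not all such flanks need be scars. Ends reading CAG and CTG, the inverted ends of this hAT group, were kept by 23.1% of URR1A integrants, and the URR1A on chromosome 7 kept only the first. Among integrants called up by the test described below, the share with no CG was 40.7% in WT, 35.0% in TET TKO and 28.3% in DNMT TKO. Among those not called it was 32.9%, 32.9% and 33.3%. Many of those called up passed the read filter only through the knockdown libraries, so these shares are a description.

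The fossils were read mainly as parts of genes. Integrants on an exon of a gene of the same strand made up 0.8% of DNA transposon integrants, yet 13.6% of those that passed the filter (556) and 47.0% of all DNA transposon reads. A further 2618 (63.9%) lay in introns of a gene of the same strand, 203 (4.95%) lay antisense to a gene and 722 (17.6%) lay outside every gene span, where 53.4% of the class sits. Among all TE integrants that passed the filter, 35.9% lay outside. The strand of the reads followed that of the genes, with 312047 reads on 1261 exonic integrants of the gene's strand and 5225 reads on 1267 of the opposite strand. Depth was modest: the median integrant had 41 reads over the 16 libraries, 1816 (44.3%) had at least 48, and 474 (11.6%) had at least 200. At the filter, 326 integrants stood just inside with 16 or 17 reads, 403 stood just outside with 14 or 15, and 136056 had none.

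The integrants with the most reads were exonic. A Tigger5 pair in the UTR of Zfp57, a KRAB zinc finger gene that maintains imprints, collected 16067 and 11557 reads, followed by a Charlie6 in the UTR of Thumpd1 with 12817 and an RMER30 in the UTR of Ccdc43 with 10552. A Zaphod2 copy lay partly in the coding sequence of Zmym5, a Tigger1 copy in that of Tpm4, and a Tigger10 copy, chr6:59160586-59161315, in that of Tigd2, a gene that itself descends from a Tigger-like transposase. The Tigger10 copy read 15.2, 16.2 and 16.9 CPM in WT shEmpty and 14.4, 19 and 19.1 in WT shKap1, groups that overlapped. None of the 9 exonic integrants among the 10 with the most reads was called after knockdown in any genotype. The tenth was the FordPrefect copy, chr17:39979943-39980108, on a KAP1 region and outside the spans of the genes in the deposited gene counts. That region held 31841 reads in the input libraries of the 5hmC experiment. The KAP1 regions under the other fossils described below held 21 to 239. The reason for this excess was not tested, nor was the transcript to which the RNA reads of this copy belong, so its values are a description. FordPrefect read 8.00, 8.72 and 8.21 CPM in WT shEmpty, 4.23 and 89.6 in the 2 TET TKO shEmpty libraries, and 6.63 to 15 in the other 11 libraries. The single library at 89.6 CPM set its fitted change in TET TKO, -2.28 ± 0.95 (edgeR adjusted p = 0.17), which was 1.19 and called up without it (edgeR adjusted p = 0.00043).

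**Figure D1:**
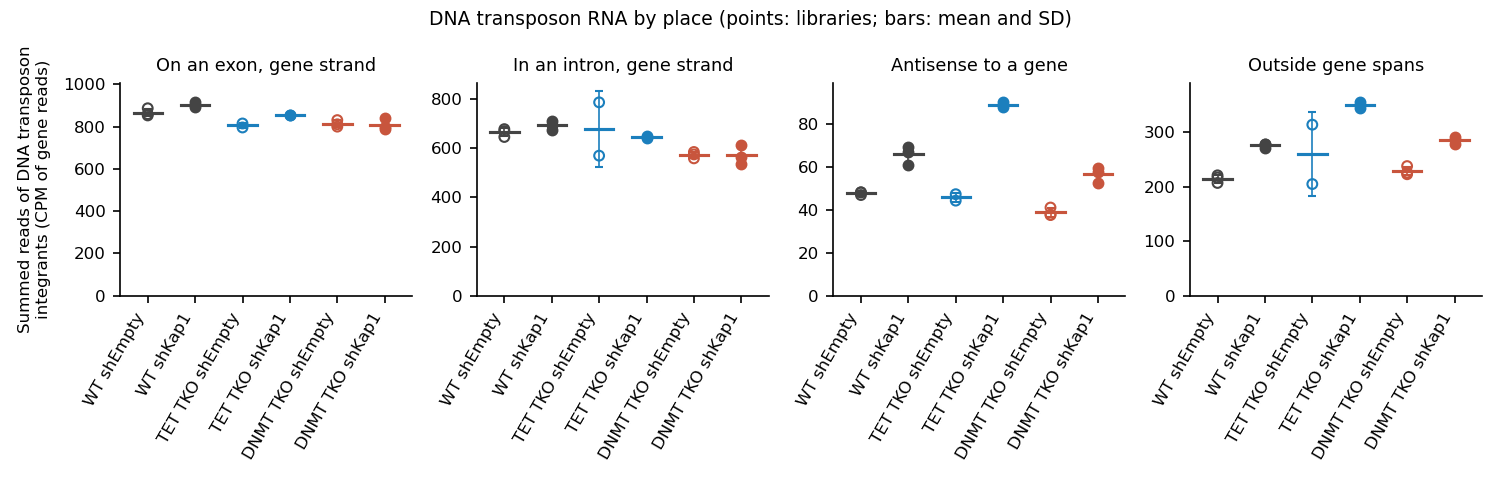
Summed CPM of all DNA transposon integrants in each library (open points shEmpty, filled points shKap1), with the mean (horizontal bar) and SD (whiskers) of each group on axes that start at 0, for exons, introns, antisense to genes and outside genes. In the last 2 panels every shKap1 library lies above all shEmpty libraries of its genotype.

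The first comparison asked whether loss of KAP1 changes the RNA over DNA transposon fossils. Summed over the class, reads outside gene spans and antisense to genes rose after Kap1 knockdown in each genotype, and reads over exons and introns of the same strand did not pass the test with all libraries. Outside genes the sum was 221, 207 and 217 CPM in WT shEmpty and 272, 278 and 278 in WT shKap1, a change of 0.36 ± 0.10 (log2, edgeR adjusted p = 0.0059). In TET TKO it was 205 and 314 CPM, then 355 and 345 (0.43 ± 0.12, edgeR adjusted p = 0.0062). In DNMT TKO it was 226, 223 and 238, then 292, 285 and 278 (0.31 ± 0.10, edgeR adjusted p = 0.013). The groups did not overlap in any genotype, although the TET TKO controls lay far apart, with FordPrefect alone making up most of the distance. Without TET TKO shEmpty replicate 2 the change in TET TKO was 0.77 ± 0.07 (edgeR adjusted p = 1.2e-08), and without replicate 1 it was 0.16 (edgeR adjusted p = 0.037). The call outside genes was lost in TET TKO without shKap1 replicate 1 (0.41, edgeR adjusted p = 0.05) and in DNMT TKO without shEmpty replicate 1 or 2 or shKap1 replicate 1 or 2 (0.30 to 0.31, edgeR adjusted p = 0.051 to 0.07). Antisense to genes the sums were lower and the changes larger: 48, 46.8 and 48.1 CPM became 60.8, 69.3 and 67.0 in WT (0.46 ± 0.08, edgeR adjusted p = 3.9e-05). In TET TKO, 44.2 and 47.2 CPM became 87.6 and 89.9 (0.96 ± 0.10, edgeR adjusted p = 2.4e-08). In DNMT TKO 37.7, 41.0 and 37.5 became 57.6, 59.3 and 52.5 (0.54 ± 0.08, edgeR adjusted p = 4.7e-06). On exons the sum moved by 0.06 ± 0.04, 0.09 ± 0.05 and -0.01 ± 0.04 in WT, TET TKO and DNMT TKO, and in introns by 0.06 ± 0.08, -0.07 ± 0.10 and -0.00 ± 0.08. Without TET TKO shEmpty replicate 2 the intronic sum changed by 0.18 ± 0.06 in TET TKO and passed (edgeR adjusted p = 0.025). Outside genes the LTR sum changed by 1.66, 1.89 and 1.8 and the LINE sum by 0.58, 1.42 and 1.28, more than the DNA transposon sum, while the SINE sum changed by 0.15, 0.57 and 0.29. Scaling the libraries on TE reads in place of gene reads moved the median of all TEs by -0.09, -0.22 and -0.18 in WT, TET TKO and DNMT TKO. Under it the sum outside genes changed by 0.28, 0.21 and 0.12, the last no longer past the test. The antisense sum then changed by 0.38, 0.72 and 0.35, all past it, and the exonic sum by -0.02, -0.15 and -0.21, turning from the positive values in WT and TET TKO. The exonic falls then passed in TET TKO and DNMT TKO (edgeR adjusted p = 0.043 and 0.0012), as did the intronic ones (-0.30 and -0.20, edgeR adjusted p = 0.00068 and 0.0035), while the intronic sum in WT changed by -0.02.

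Single integrants were called when the edgeR quasi-likelihood adjusted p, over all 123904 TEs tested, was below 0.05 and the change at least 2-fold. In WT 237 fossils (5.78%) rose and 83 (2.02%) fell, where 12.1% of all TEs tested rose and 2.05% fell. In TET TKO 274 (6.68%) rose and 40 (0.976%) fell, beside 14.7% and 0.972% of all TEs, and without TET TKO shEmpty replicate 2 the fossils numbered 190 and 24. In DNMT TKO 185 (4.51%) rose and 46 (1.12%) fell, beside 15.0% and 0.943%. Some settings gave fewer calls: DESeq2 called 106 up and 35 down in WT, 110 and 11 in TET TKO and 90 and 12 in DNMT TKO, a filter of 1 read left 157 and 48 in WT, and a filter of 48 reads left 141, 136 and 109 rises. The class thus rose at well under the background share in each genotype and fell at about it, and in WT it stood between SINEs (3.5% up) and LINEs (14%), far from LTR elements (32.0%). Integrants within 5 kb of each other were joined into loci, which left 205, 227 and 164 loci that rose. The median log2 change over all 4099 was 0.11 in WT, 0.0 in TET TKO and 0.05 in DNMT TKO.

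**Figure D2:**
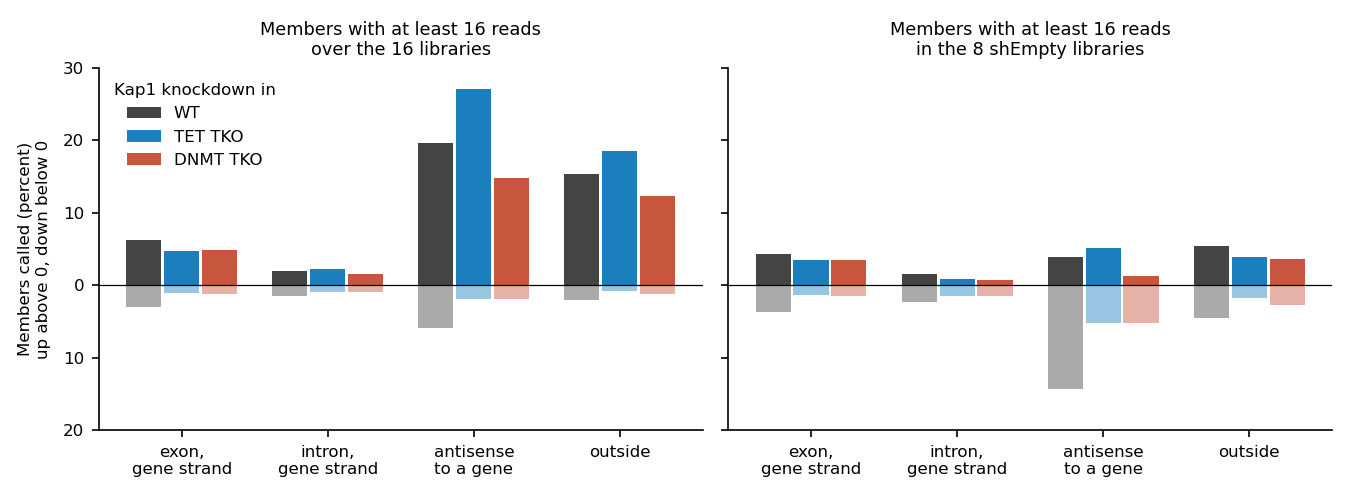
Percent of DNA transposon fossils called up (bars above 0) and down (paler bars below 0) after Kap1 knockdown, by place and genotype, for all 4099 fossils (left) and for the 2497 with at least 16 reads in the shEmpty libraries (right). Fossils antisense to and outside genes reach 19.7% and 15.4% up in WT on the left, and 3.9% and 5.44% on the right.

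The share that rose differed by place. In WT 40 of 203 antisense integrants (19.7%) and 111 of 722 outside genes (15.4%) rose, against 35 of 556 on exons (6.29%) and 51 of 2618 in introns (1.95%). In TET TKO the same shares were 27.1%, 18.6%, 4.68% and 2.25%, and in DNMT TKO 14.8%, 12.3%, 4.86% and 1.49%. The other classes stood at 40% and 40.7% (LTR), 16.1% and 17.5% (LINE) and 7.55% and 9.2% (SINE) antisense to and outside genes in WT. A fossil that is read only after knockdown passes the filter because of the knockdown and had to differ, so the counts were also taken over the 2497 integrants with at least 16 reads in the shEmpty libraries alone. Of these, 67 (2.68%) rose and 81 (3.24%) fell in WT, 46 rose and 40 fell in TET TKO, and 41 rose and 44 fell in DNMT TKO. Of the 68283 TEs of any class with as many shEmpty reads, 6.58%, 7.12% and 9.12% rose and 3.63%, 1.74% and 1.65% fell in WT, TET TKO and DNMT TKO. Outside genes 18 of 331 (5.44%) rose in WT, and antisense to genes 3 of 77 (3.9%) rose while 11 (14.3%) fell, beside rises of 20 of 458 on exons (4.37%) and 26 of 1631 in introns (1.59%). In TET TKO 4 of 77 antisense and 16 of 458 exonic fossils rose (5.19% and 3.49%), and in DNMT TKO 1 of 77 and 16 of 458. This filter itself favours fossils that fell over those that rose, and the difference between places was not tested. Of 452 fossils that rose in at least 1 genotype, 53 rose in all 3 (25 outside, 12 antisense, 9 on exons and 7 in introns), 79 in WT only, 107 in TET TKO only and 75 in DNMT TKO only by this threshold. The 53 were 11.7% of the 452, where 27.9% of the 28543 TEs of any class that rose in at least 1 genotype rose in all 3. The 134 that rose in both WT and TET TKO were 56.5% of the WT and 48.9% of the TET TKO set, and the 77 in both WT and DNMT TKO were 32.5% and 41.6%. Over all TEs tested these shares were 72.6% and 59.9%, and 63.7% and 51.4%. Each genotype's knockdown was compared with its own shEmpty libraries.

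**Figure D3:**
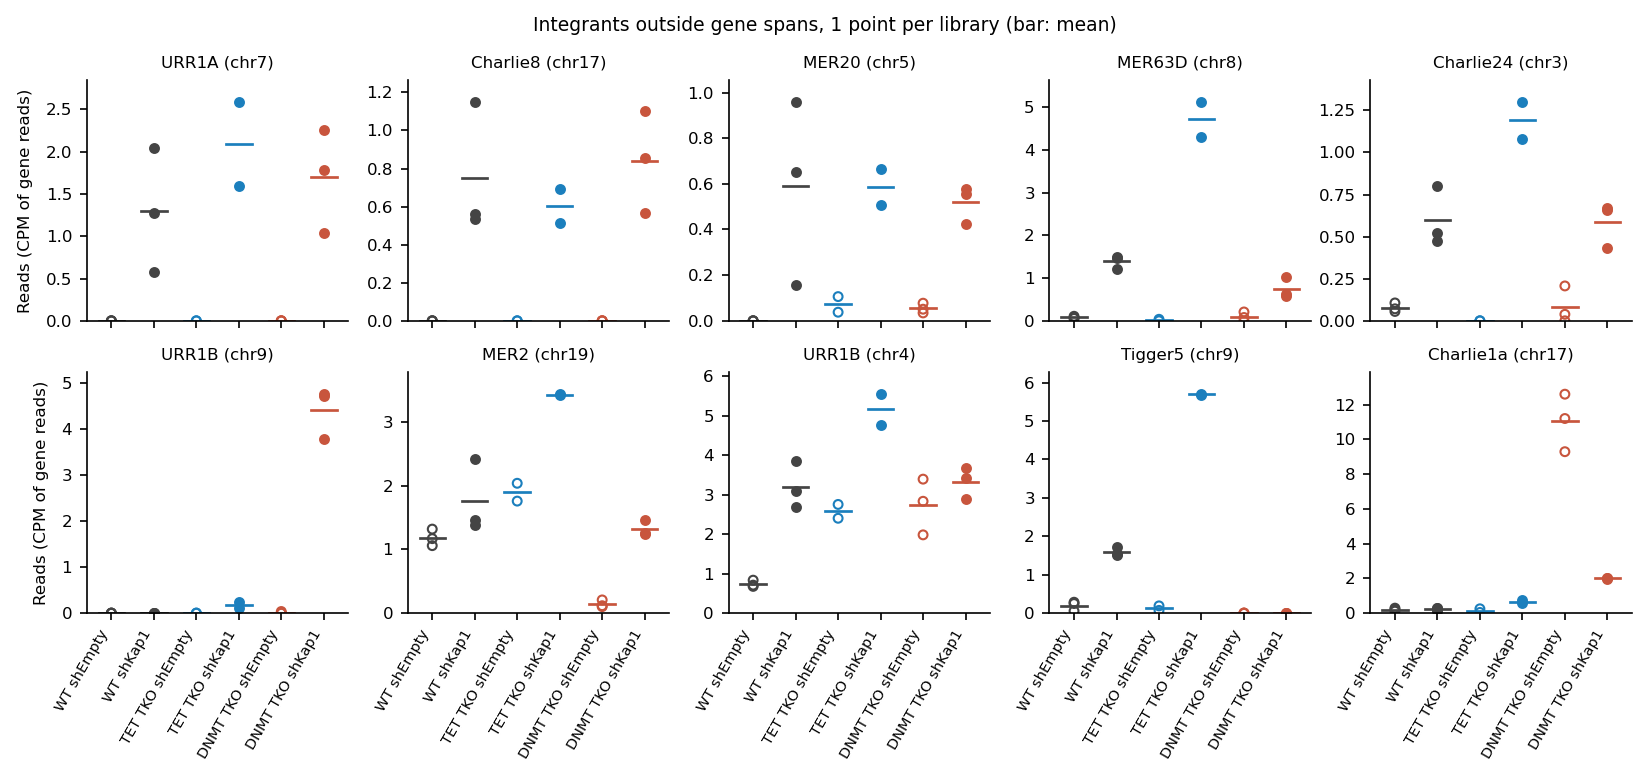
CPM per library (points) (open points shEmpty, filled points shKap1) with group means (horizontal bars) for 10 fossils outside genes that are described in the text, each panel on its own scale from 0. URR1A on chromosome 7 is at 0 in all shEmpty libraries and Tigger5 on chromosome 9 at 0 in all DNMT TKO libraries.

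The fossils outside genes with the largest rises that follow, except Charlie24, lay close downstream of an LTR integrant of the same strand that was itself called up. Each of these 5 had fewer than 16 reads in the shEmpty libraries and passed the filter through the knockdown, so their values are a description. URR1A, chr7:20475076-20475279, had no read in any of the 8 shEmpty libraries. It read 0.577, 2.04 and 1.28 CPM in WT shKap1, 2.59 and 1.59 in TET TKO and 2.26, 1.79 and 1.04 in DNMT TKO. Set against a floor of 3 reads over the control group, it was at least 33.4-fold, 38.8-fold and 40.7-fold higher. An RLTR17B_Mm copy that rose lay 1769 bp upstream and the nearest KAP1 region 4632 bp away. The gene Ceacam19, described below, lay downstream on the same strand. Charlie8, chr17:15777328-15777417, was likewise at 0 in every control and read 0.513 to 1.15 CPM in the 8 knockdown libraries (at least 18.3-fold, 11.2-fold and 20.9-fold higher), 474 bp downstream of an MMETn element, a retrovirus-like LTR element. MER20 on chromosome 5 was at 0 in WT shEmpty and read 0.157, 0.650 and 0.959 CPM in WT shKap1 (at least 14.6-fold higher). It rose by 2.92 ± 0.71 in TET TKO and 3.16 ± 0.64 in DNMT TKO, 16 bp downstream of an MTE2b. MER63D, chr8:59229480-59229825, lay 445 bp downstream of a MERVL provirus, the element of the 2-cell embryo. It read 0.0555, 0.0711 and 0.106 CPM in WT shEmpty and 1.21, 1.47 and 1.49 in WT shKap1 (4.03 ± 0.46), 0.0352 and 0 then 4.31 and 5.13 in TET TKO (258-fold by 193 reads against 1, counting interval 45.8 to 10300), and rose by 2.75 ± 0.47 in DNMT TKO. The groups were apart in all 3 genotypes. Charlie24, chr3:69757604-69758411, rose by 2.8 ± 0.57 in WT and 2.61 ± 0.55 in DNMT TKO and was at least 21.9-fold higher in TET TKO, with no such neighbour within 10 kb upstream.

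Such neighbours were counted for all fossils. In WT 131 of 237 (55.3%) had an LTR or LINE integrant called up within 10 kb upstream on the same strand, as did 1 of 83 that fell and 154 of 3779 (4.08%) called in neither direction. Outside genes the shares were 67.6% of 111 against 11.4% of 596, and antisense to genes 70.0% of 40 against 16.6% of 151. In TET TKO 67.5% of those that rose had such a neighbour against 2.32% of those not called, and in DNMT TKO 54.1% against 4.01%. Neighbours downstream were also more frequent beside fossils that rose in WT (45.6% against 2.83%). The neighbours were called in the same libraries, so these shares are a description of where the reads lay. Over fossils with at least 16 shEmpty reads, 37.3% of 67 that rose in WT had an upstream neighbour of this kind against 2.13% of those not called, 37% of 46 against 1.12% in TET TKO and 43.9% of 41 against 1.91% in DNMT TKO. When the 4789 DNA transposon integrants outside genes with a called-up LTR or LINE integrant within 10 kb of either side were taken out, which removed 25957 of 98035 reads, the sum outside changed by 0.02 ± 0.12 in WT, -0.23 ± 0.15 in TET TKO and 0.03 ± 0.12 in DNMT TKO, and no genotype passed the test. The integrants taken out were chosen by calls in the same libraries, so these values describe the reads that remained. Antisense to genes, taking out 1375 of 37325 integrants and 6999 of 20490 reads left changes of -0.13 ± 0.08, 0.01 ± 0.10 and 0.09 ± 0.08, which did not pass the test either. Without TET TKO shEmpty replicate 2 the change left in TET TKO was 0.16 ± 0.07 outside genes (edgeR adjusted p = 0.084) and 0.06 ± 0.11 antisense to genes.

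**Figure D4:**
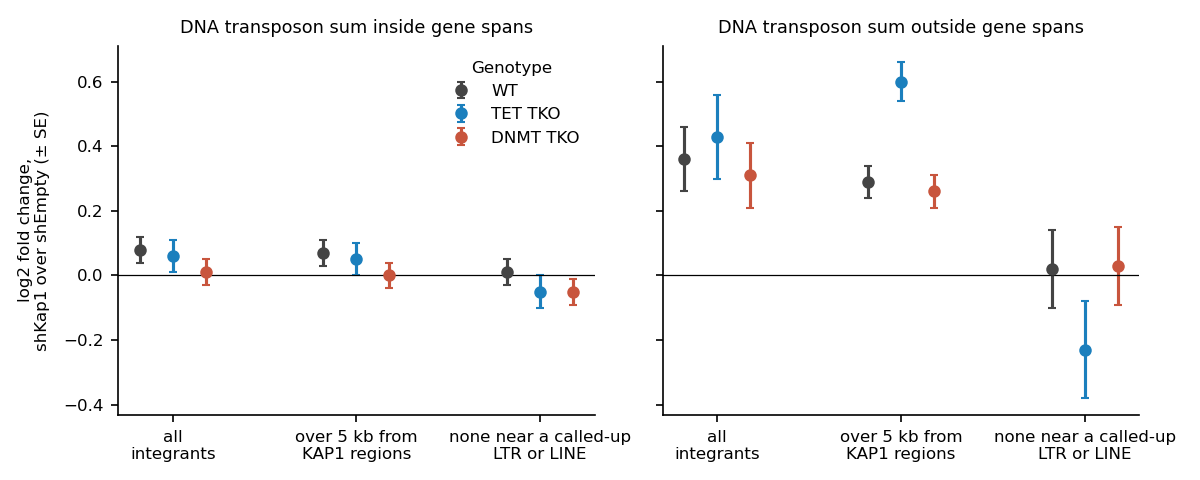
Log2 change of the DNA transposon sum after Kap1 knockdown (points, with standard errors) inside and outside gene spans by genotype, for all integrants, for those over 5 kb from KAP1 regions and for those not near a called-up LTR or LINE integrant. Outside genes the 3 genotypes sit at 0.31 to 0.43 with all integrants and at -0.23 to 0.03 without those near such neighbours, which were chosen by calls in the same libraries.

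Few fossils lay on KAP1 itself. The KAP1, histone mark and 5hmC maps carry no TET TKO or DNMT TKO label. The study describes the 5hmC map as from wild-type cells. Shares given for TET TKO and DNMT TKO thus do not show KAP1 or marks in those lines. Of the 4099, 18 (0.439%) overlapped a KAP1 region, against 8.15% of all TEs tested and 21.5% of LTR integrants (with at least 0.5 of the integrant covered, 0.317% against 1.71% and 6.3%), and 50 (1.22%) overlapped an H3K9me3 region against 7.72% of all TEs. Over the whole track, 337 of the 159459 DNA transposon integrants (0.211%) overlapped a KAP1 region, beside 2.39% of LTR, 1.18% of LINE and 0.279% of SINE integrants. Of the 18, URR1B, chr12:18192696-18192809, was called up in WT and TET TKO, URR1A, chr8:13715979-13716170, antisense to a gene, in WT, MER20, chr14:50432252-50432404, in DNMT TKO, and MER58A, chr5:137196459-137196545, in TET TKO and DNMT TKO. They had 78, 32, 20 and 26 reads over the 16 libraries, of which 9, 0, 0 and 0 were in shEmpty libraries. A MER5A on chromosome 17 and a URR1B on chromosome 3, both in introns, were higher in TET TKO on 16 and 29 reads, 0 and 7 of them in shEmpty libraries. All 6 thus passed the filter of 16 reads only with the reads of the knockdown libraries, which by itself selects for a rise, so their calls are a description. The other 12 were called in no genotype with all libraries, FordPrefect among them, which was called up in TET TKO without shEmpty replicate 2 as given above. Among fossils that rose in WT, 5.06% lay on H3K9me3 regions and 4.64% on H3K27me3 regions, against 1.01% and 0.662% of those not called, while 0.422% against 6.01% lay on H3K4me3 regions, the mark of active promoters. For H3K9me3 the shares were 2.19% against 1.16% in TET TKO and 1.08% against 1.24% in DNMT TKO, and for H3K27me3 4.01% against 0.661% and 4.32% against 0.724%. These shares include fossils that passed the filter through the knockdown and are a description. Of those with at least 16 shEmpty reads, 8 of 67 that rose in WT lay on H3K9me3 regions (11.9% against 1.06% of those not called), 2 of 46 in TET TKO and 2 of 41 in DNMT TKO (4.35% and 4.88%, both against 1.29%). On H3K27me3 regions there were 1 of 67, 1 of 46 and 0 of 41, and on H3K4me3 regions none.

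By distance to KAP1 in WT, 17.6% of the 74 fossils within 1000 bp of a KAP1 region rose, then 11% of 210 up to 5000 bp, 8.63% of 742 up to 20000 bp, 4.86% of 2035 up to 100000 bp and 3.66% of 1038 beyond. In TET TKO and DNMT TKO the nearest bin held 13.5% each and the farthest 4.91% and 3.66%. These counts include fossils that passed the filter through the knockdown libraries. Over the 2497 with at least 16 shEmpty reads, 2 of 33 (6.06%), 5 of 116 (4.31%), 20 of 430 (4.65%), 30 of 1289 (2.33%) and 10 of 629 (1.59%) rose in WT, and in the nearest bin 0 of 33 rose in TET TKO and 1 of 33 in DNMT TKO by edgeR's adjusted p, with 1 and 3 higher at an unadjusted p under 0.05. Outside genes, 23.4% of the WT fossils that rose lay within 5 kb of a KAP1 region against 13.8% of those not called. In DNMT TKO this was 31.5% against 13%, and in TET TKO 16.4% against 14.9%. These shares too include fossils brought in by the knockdown. With at least 16 shEmpty reads, 3 of 18 that rose outside genes in WT lay that near (16.7% against 11.7% of those not called), 2 of 13 in TET TKO (15.4% against 11.9%) and 3 of 12 in DNMT TKO (25% against 11.6%). The sum outside genes over integrants farther than 5 kb from KAP1 changed by 0.29 in WT, 0.60 in TET TKO and 0.26 in DNMT TKO. This setting also leaves out FordPrefect, which was high in TET TKO shEmpty replicate 2 alone. The TET TKO value is thus not comparable with that over all integrants. In the hydroxymethylation data, of which only replicate 1 could be assigned to its conditions from the labels, leaving 1 library per condition and no test, the 17 KAP1 regions with one of these fossils gained 5hmC by a median of 0.87 (log2, quartiles 0.36 and 1.26) after knockdown. The 308 regions with any DNA transposon integrant gained a median of 0.55 and all 25992 KAP1 regions with enough input reads 0.64. Scaled to H3K4me3 regions in place of all region sets, the 3 medians were 0.48, 0.16 and 0.26. The fossils on KAP1 regions that were called up passed the filter only with knockdown reads. Under the first scaling their regions gained 0.77 to 2.83. Those of the other fossils changed by -1.36 to 2.05. The median over the 17 regions thus depends on this selection and is a description.

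Inside genes the changes of fossils and hosts were set side by side. Across 539 exonic integrants in 477 genes the Spearman correlation of the integrant's and the host gene's log2 change in WT was 0.689, and across 2543 intronic integrants in 1870 genes it was 0.42, as descriptions, since the host's count includes the reads of an exonic integrant. Of 34 exonic fossils that rose in WT with a tested host, 24 lay in a gene that rose, as did 35 of 47 intronic ones, and of those that fell 11 of 16 and 26 of 36 lay in a gene that fell. In TET TKO 17 of 25 exonic and 35 of 52 intronic fossils that rose lay in a gene that rose, but 2 of 5 and 10 of 23 that fell in a gene that fell. In DNMT TKO these were 21 of 27 and 26 of 36, and 3 of 7 and 7 of 23. The share of all fossils that lay in genes that fell was not counted. Of all genes tested, 6.54% fell in WT, 4.46% in TET TKO and 2.41% in DNMT TKO. Of all 539 exonic and 2543 intronic fossils, 50 and 121 lay in a gene that rose in WT, 32 and 93 in TET TKO and 41 and 81 in DNMT TKO. A host that rose did not carry all its fossils past the threshold: 24 of the 50 exonic and 35 of the 121 intronic fossils in WT were themselves called. The counts of fossils that rose include those that passed the filter through the knockdown libraries and are a description.

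The largest rise inside a gene was that of a URR1B in the UTR of Ceacam19, a gene of the carcinoembryonic antigen family, at chr7:20462832-20463054 on the same chromosome and strand as the URR1A above. It read 0, 0.178 and 0.0708 CPM in WT shEmpty and 6.29, 10.1 and 9.97 in WT shKap1 (6.48 ± 0.31, edgeR adjusted p = 1.8e-96), rose 245-fold in TET TKO (548 reads against 3, counting interval 83.2 to 1190) and by 5.89 ± 0.28 in DNMT TKO, and its host went from 0.614 ± 0.197 to 50.6 ± 11.5 CPM in WT. Ceacam19 spanned chr7:20461091-20473314 on the minus strand. The URR1A above, chr7:20475076-20475279, thus lay upstream of this gene on its strand. Whether both rises belong to the same transcript was not tested. A MER5B in the UTR of Kcnf1, a potassium channel subunit, chr12:17179246-17179374, rose 36.2-fold in WT (89 reads against 3, counting interval 12.0 to 179), and Kcnf1 by 4.23 ± 0.15. Falls were smaller. A MER2B in the UTR of Aoah, an enzyme that inactivates bacterial endotoxin, chr13:21115545-21115633, read 6, 6.08 and 5.63 CPM in WT shEmpty and 2.57, 1.73 and 1.49 in WT shKap1 (-1.61 ± 0.22, edgeR adjusted p = 5.5e-12), and Aoah fell by 1.67 on the log2 scale. A MER3 on an exon of Chka, a choline kinase, chr19:3866476-3866607, fell in WT (-1.79 ± 0.38) and TET TKO (-2.21 ± 0.50), as Chka did (-1.35 in both). A URR1B in an intron of Stx3, a membrane fusion protein, read 0.762, 0.967 and 1.04 CPM in DNMT TKO shEmpty and 0.144, 0.235 and 0.334 in shKap1 (-1.91 ± 0.40, edgeR adjusted p = 2.9e-05), with Stx3 at -1.04. An MMAR1 on an exon of the lincRNA C330018A13Rik, chr5:116577843-116578142, read 1.28, 1.42 and 1.38 CPM in WT shEmpty and 0.315, 0.650 and 0.533 in WT shKap1 (-1.42 ± 0.36), and 1.02 and 0.601 then 0.139 and 0.154 in TET TKO (-2.44 ± 0.59), with the lincRNA at -1.41 and -1.93. A MER20 in the UTR of Parm1, chr5:92053352-92053460, was read mainly in DNMT TKO, at 1.37, 2.66 and 2.04 CPM in shEmpty and 0.240, 1.27 and 0.408 in shKap1 (-1.69 ± 0.33, edgeR adjusted p = 6.9e-06), against 0.174 ± 0.107 in WT shEmpty. Parm1 fell with it in DNMT TKO, from 56.5 ± 17.4 to 17 ± 8.42 CPM (-1.73 ± 0.36).

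By superfamily, the sums outside genes rose in both large groups with all integrants. The hAT-Charlie sum (2835 fossils, 503 outside) changed there by 0.28 ± 0.05, 0.56 ± 0.07 and 0.27 ± 0.05 in WT, TET TKO and DNMT TKO (edgeR adjusted p = 0.00017, 4.8e-07 and 0.00024). The TcMar-Tigger sum (917 fossils, 140 outside) changed by 0.66 ± 0.08, 0.97 ± 0.09 and 0.54 ± 0.08 (edgeR adjusted p = 3.9e-07, 3e-08 and 5e-06). Without integrants near called-up LTR or LINE integrants these changes were -0.01, 0.04 and 0.06 for hAT-Charlie and 0.03, -0.13 and -0.03 for TcMar-Tigger, and none passed. Those integrants were chosen by calls in the same libraries, so these and the further values without them are a description. Under scaling on TE reads hAT-Charlie no longer passed in DNMT TKO (0.07, edgeR adjusted p = 0.29). The hAT-Blackjack sum, with 18 fossils outside, changed by 0.94, 2.33 and 1.23, and by 0.02, 0.22 and 0.45 without integrants near called-up neighbours, where no genotype passed (edgeR adjusted p = 0.95, 0.55 and 0.099). The hAT-Tip100 sum, which holds FordPrefect, changed by 0.41 ± 0.54, -1.37 ± 0.66 and -0.11 ± 0.53 and was not called. Without TET TKO shEmpty replicate 2 its change was 0.89 ± 0.17 in TET TKO and 0.41 ± 0.11 in WT, and both passed (edgeR adjusted p = 0.00024 and 0.0041). Without integrants near called-up neighbours as well, it was 0.74 in TET TKO (edgeR adjusted p = 0.0029) and 0.26 in WT (edgeR adjusted p = 0.083).

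The 12 largest families held 2508 of the 4099 fossils, led by the rodent elements URR1A and URR1B with 532 each. Outside genes the URR1A sum was 23.3 ± 0.451 CPM in WT shEmpty and 31.2 ± 2.82 in WT shKap1 and changed by 0.42 ± 0.09, 0.77 ± 0.11 and 0.51 ± 0.09 in the 3 genotypes, and the URR1B sum by 0.51 ± 0.08, 0.59 ± 0.10 and 0.44 ± 0.08. All passed the test at less than 2-fold. In URR1A, 14, 13 and 9 of 93 outside fossils rose singly (15.1%, 14% and 9.68%), and in URR1B 13, 13 and 7 of 93 (14%, 14% and 7.53%), near or below the 15.4%, 18.6% and 12.3% of all fossils outside genes. With at least 16 shEmpty reads these were 1 of 38 URR1A in each genotype, and 6, 2 and 0 of 52 URR1B. The Tigger7 sum went from 2.94 ± 0.242 to 7.3 ± 0.693 CPM in WT (1.31 ± 0.16), and changed by 1.68 ± 0.20 in TET TKO and 0.77 ± 0.17 in DNMT TKO, with 9, 12 and 1 of 23 fossils called up, and 1 of the 7 with at least 16 shEmpty reads in each. Tigger5 went from 1.48 ± 0.426 to 5.05 ± 0.142 CPM in WT (1.74 ± 0.20) and from 1.46 ± 0.117 to 12.1 ± 0.67 in TET TKO (3.05 ± 0.24), and was not called in DNMT TKO (0.48 ± 0.21, edgeR adjusted p = 0.062). MER2 changed by 0.69, 0.81 and 0.80 and MER58B by 1.45, 1.61 and 0.84, past the test in each. RCHARR1 and MER20 sums passed the test in TET TKO only (0.69 ± 0.14 and 0.56 ± 0.15), MER5B in TET TKO (0.92 ± 0.18) and DNMT TKO (0.48 ± 0.15), and MER58A in none. Under scaling on TE reads MER20 in TET TKO (0.32, edgeR adjusted p = 0.086) and MER5B in DNMT TKO (0.28, edgeR adjusted p = 0.099) lost their calls. The MER5A sum in TET TKO lay at the threshold (0.29 ± 0.12), with an edgeR adjusted p = 0.041 among sums inside and outside genes and 0.051 among sums over the 4 places. Without integrants within 10 kb of a called-up LTR or LINE integrant, URR1A changed by 0.07, 0.04 and 0.13, URR1B by -0.04, -0.06 and -0.05, Tigger7 by 0.27, -0.01 and 0.25 and MER2 by 0.12, -0.01 and 0.14, and none of these passed. MER5B in TET TKO (0.60) and Charlie1a in WT (0.74) still did (edgeR adjusted p = 0.021 and 0.025). The Charlie1a sum then rose in DNMT TKO (0.73, edgeR adjusted p = 0.028), and MER58A fell in WT (-0.82) and TET TKO (-1.24, edgeR adjusted p = 0.0072 and 0.00056). The integrants taken out were chosen by calls in the same libraries, so these values and calls are a description. Tested as the difference of the knockdown effects outside genes, TET TKO exceeded WT for Tigger5 (1.31 ± 0.31, edgeR adjusted p = 0.0097), RCHARR1 (0.62 ± 0.18, edgeR adjusted p = 0.033) and the hAT-Blackjack sum (1.39 ± 0.26, edgeR adjusted p = 0.0014). DNMT TKO was below WT for Tigger5 (-1.26 ± 0.29, edgeR adjusted p = 0.0069) and Charlie1a (-2.64 ± 0.25, edgeR adjusted p = 6.5e-07), and no other of the 12 families passed. The copy on chromosome 9 described below made up a large part of the Tigger5 sum in TET TKO shKap1. It had no read in DNMT TKO, so the Tigger5 differences are not separate from that copy. Of 170 family names tested as sums over all places, 6 rose at least 2-fold and 1 fell in WT: Charlie7 (1.39), MER63C (1.71), MER97c (3.45), Tigger13a (1.14), MER47A (1.41), Tigger16a (1.23) and Eulor2C (-3.76), of which MER97c, MER47A, Tigger16a and Eulor2C rested on 1 or 2 fossils. By the same threshold 8 rose and 3 fell in TET TKO, and 11 rose and 0 fell in DNMT TKO. Of the largest families over all places, URR1A (0.25), MER2 (0.38), Tigger7 (0.53) and MER58A (0.26) passed in TET TKO only without TET TKO shEmpty replicate 2 (edgeR adjusted p = 0.0076, 0.0013, 0.0024 and 0.045).

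The next comparison asked whether the knockdown response depended on TETs or DNMTs. Few fossils differed: 10 in TET TKO against WT (7 with the higher response in TET TKO and 3 with the lower), where 1.07% of all TEs did, and 17 in DNMT TKO (7 higher, 10 lower), where 1.8% did. Without TET TKO shEmpty replicate 2 the 10 became 4, as they did without TET TKO shKap1 replicate 1, and they were 5 or 6 without TET TKO shEmpty replicate 1, TET TKO shKap1 replicate 2 or WT shEmpty replicate 2 or 3. Tigger5, chr9:24600406-24600579, read 0.0555, 0.249 and 0.283 CPM in WT shEmpty, 1.73, 1.52 and 1.55 in WT shKap1, 0.0705 and 0.188 in TET TKO shEmpty and 5.69 and 5.70 in TET TKO shKap1. It had no read in any DNMT TKO library. The rise in TET TKO exceeded that in WT by 2.54 ± 0.68 (edgeR adjusted p = 0.023). An L1M5 LINE that rose in both lay 2494 bp upstream. A Charlie15a in the UTR of Bcl2l2, a cell survival gene, and in an intron of the overlapping Gm20521, chr14:55506054-55506259, read 2.61, 2.45 and 2.65 CPM in WT shEmpty, 2.57, 2.51 and 2.40 in WT shKap1, 2.01 and 2.10 in TET TKO shEmpty and 6.90 and 5.80 in TET TKO shKap1. It rose in TET TKO alone, and the difference was 1.67 ± 0.36 (edgeR adjusted p = 0.00089). Its host Bcl2l2 differed by 1.78 ± 0.22. The MER2B of Aoah fell in WT and not detectably in TET TKO (difference 1.14 ± 0.33, edgeR adjusted p = 0.048). On chromosome 4 the Tigger1 copies at chr4:145208955-145209292, in introns of the zinc finger genes Gm13212 and Gm13242, and chr4:145027365-145027546, in an intron of Gm13227, had smaller responses in TET TKO (differences -2.49 ± 0.67 and -1.89 ± 0.54, edgeR adjusted p = 0.023 and 0.044). Both were higher in TET TKO shEmpty (0.901 and 1.13, and 0.705 and 1.80 CPM) than in WT shEmpty (0.0354 to 0.142, and 0.0711 to 0.425). The second lost its call without TET TKO shEmpty replicate 2, the library at 1.80 CPM (difference -1.08, edgeR adjusted p = 0.74).

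Against DNMT TKO, MER2, chr19:61261666-61261796, read 1.17, 1.32 and 1.06 CPM in WT shEmpty, 1.47, 2.42 and 1.39 in WT shKap1, 0.102, 0.207 and 0.116 in DNMT TKO shEmpty and 1.25, 1.46 and 1.26 in DNMT TKO shKap1. It was low only in DNMT TKO without knockdown, and its rise there (3.13 ± 0.39) exceeded that in WT by 2.54 ± 0.49 (edgeR adjusted p = 6.7e-05). URR1B, chr4:145041712-145041795, went the other way. It read 0.833, 0.676 and 0.708 CPM in WT shEmpty and 3.09, 2.68 and 3.84 in WT shKap1 (2.12 ± 0.26), while DNMT TKO read 1.98, 2.83 and 3.39 without and 2.88, 3.43 and 3.67 with knockdown, so that the response was lower by 1.84 ± 0.34 (difference -1.84, edgeR adjusted p = 1.7e-05). It began 76 bp downstream of an RMER15 LTR that rose in WT and TET TKO. A Ricksha_0 in the UTR of Slfn4, a Schlafen gene of myeloid cells, chr11:83003224-83003822, fell in WT (10.6-fold by 13 reads against 1, counting interval 1.6 to 453) and rose in DNMT TKO (1.85 ± 0.33), a difference of 4.89 ± 0.98 (edgeR adjusted p = 0.00013), and Slfn4 differed by 4.22 ± 0.43. Charlie1a, chr17:17648225-17648697, read 0.111 to 0.285 CPM in WT shEmpty and 0.130 to 0.320 in WT shKap1. In DNMT TKO it read 9.29, 11.2 and 12.6 CPM without knockdown and 1.97, 2.02 and 2.00 with it, so it fell by 2.46 on the log2 scale there (difference from WT -2.67 ± 0.52, edgeR adjusted p = 0.00044). The Charlie1a sum outside genes in DNMT TKO, of which this copy made up most without knockdown, was 14.3 ± 1.6 CPM without knockdown and 4.64 ± 0.162 with it (-1.62 ± 0.16), while the Charlie1a sum rose in WT (1.02 ± 0.19) and TET TKO (1.58 ± 0.22).

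For some fossils no difference from WT can be given because the WT libraries held no read. The 2 that follow also had fewer than 16 shEmpty reads and are a description. URR1B, chr9:98682742-98682943, was at 0 in all 6 WT libraries and both TET TKO shEmpty libraries. It read 0.231 and 0.103 CPM in TET TKO shKap1, 0, 0.0345 and 0 in DNMT TKO shEmpty and 4.71, 4.75 and 3.78 in DNMT TKO shKap1. The rise within DNMT TKO was 325-fold (301 reads against 1, counting interval 57.9 to 12900), with an MT2B2 LTR that rose 1077 bp upstream. MER124, chr9:74559994-74560362, was also at 0 in WT and read 0.203, 0.0690 and 0.116 CPM in DNMT TKO shEmpty and 5.86, 4.66 and 5.75 after knockdown (5.42 ± 0.38), 736 bp downstream of an MTD LTR that rose.

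Without knockdown, 63 fossils were higher and 44 lower in TET TKO than in WT, where 1.74% and 2.33% of all TEs were, and these 107 became 59 without TET TKO shEmpty replicate 2. In DNMT TKO 108 were higher and 194 lower, where 3.48% and 6.45% were. The median over all fossils was -0.20 in DNMT TKO, and the sum antisense to genes was lower there by 0.30 ± 0.08 (log2 change -0.30, edgeR adjusted p = 0.0088), which was -0.06 and not called under scaling on TE reads, a scaling that moved this contrast's median by 0.22. The intronic sum was 0.03 in TET TKO and -0.21 in DNMT TKO and not called, and without TET TKO shEmpty replicate 2 it was -0.22 and -0.21 and passed in both (edgeR adjusted p = 0.022 and 0.00063). On chromosome 6 in DNMT TKO 2 of 222 fossils were higher and 32 (14.4%) lower with a median of -0.60, on chromosome 8 there were 10 of 223 higher and 17 (7.62%) lower (-0.27), on chromosome 11 there were 5 of 275 and 7 (2.55%; 0.15), and on the others 91 of 3379 and 138 (4.08%). Over all TEs tested 11.1%, 9.03%, 4.08% and 6.18% were lower on these chromosomes, the same order. The intronic MER5A of Mid1, an X-linked ubiquitin ligase, read 6.83, 3.88 and 3.75 CPM in WT shEmpty, 0.176 and 0.188 in TET TKO shEmpty and 0, 0.0345 and 0.0385 in DNMT TKO shEmpty (-4.67 ± 0.38 in TET TKO, and 170-fold lower in DNMT TKO by 338 reads against 2, counting interval 46.6 to 1410, edgeR adjusted p = 2.7e-32 and 5.1e-59). A MER58A in the same gene, chrX:166422357-166422564, read 4.16, 2.88 and 3.36 CPM in WT and none in DNMT TKO. Mid1 itself went from 434 ± 33.7 CPM in WT to 32.7 ± 3.57 in TET TKO and 1.67 ± 0.0545 in DNMT TKO. In the other direction, MER33, chr4:55329049-55329355, was at 0 in WT and DNMT TKO shEmpty and read 2.15 and 2.10 CPM in TET TKO shEmpty. MER2, chr5:110261434-110261571, read 0.0356 to 0.177 CPM in WT shEmpty, 1.62 and 1.76 in TET TKO and 1.52 to 1.83 in DNMT TKO. A pair of Tigger9b copies on chromosome 4, chr4:127104961-127105163 and chr4:127105315-127105394, was higher in both knockouts without knockdown and fell in TET TKO with it (11-fold by 44 reads against 3, counting interval 3.51 to 55.2, and -2.34 ± 0.63).

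Domesticated transposases, host genes that descend from DNA transposons, were followed beside the fossils. Of 20 such genes listed, 17 were present in the gene counts and 14 had enough reads. Pogk, of the pogo family, rose in WT from 1.11 ± 0.195 to 5.39 ± 0.272 CPM (2.25 ± 0.27, edgeR adjusted p = 2.5e-06), in TET TKO (2.14) and in DNMT TKO (1.92), and was the only one of the 14 to rise in WT, where 10.8% of genes tested did, against 8.05% in TET TKO and 10.1% in DNMT TKO. Pgbd5, of the piggyBac family, rose in DNMT TKO only at the 2-fold threshold, from 8.17 ± 0.853 to 41.3 ± 4.45 CPM (2.34 ± 0.15, edgeR adjusted p = 2.6e-09), against 0.55 ± 0.15 in WT and -0.63 ± 0.20 in TET TKO. Its difference from WT was 1.80 ± 0.21 in DNMT TKO and -1.17 ± 0.25 in TET TKO (edgeR adjusted p = 1.1e-05 and 0.006). None of the 14 fell 2-fold in any genotype, where 6.54%, 4.46% and 2.41% of genes did in WT, TET TKO and DNMT TKO. Tigd2, which carries the Tigger10 fossil, read 47.0 ± 1.7 and 50.9 ± 6.79 CPM in WT (0.12 ± 0.10).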

How the data were processed

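RNA-seq of 16 libraries in 6 groups was used. The authors aligned stranded poly-A reads to mm9 (HISAT2, 2.0.1 in the submitters' processing notes), kept unique hits, and deposited whole-number counts per gene (featureCounts 1.5.0-p1 per the file headers) and per repeat copy of the same strand. KAP1 and histone regions and 5hmC counts were deposited by the authors as well; the roles of 4 of the hydroxymethylation libraries are not clear from the labels and they were not used. Counts were fitted with edgeR 4.0.16 (quasi-likelihood, 1 mean per group, all 16 libraries, gene-based library sizes and TMM factors), keeping copies with at least 16 reads, and p-values were adjusted by Benjamini-Hochberg over all TEs tested. Single copies and genes were called at an adjusted p under 0.05 with a change of 2-fold or more. Sums were called, or passed the test, at an adjusted p under 0.05 alone. The counts of family names called over all places also required 2-fold. CPM values are scaled to the TMM-adjusted gene reads. Alternatives used limma 3.58.1 (voom), DESeq2 1.42.0, other scalings and filters, a replicate block and each library left out. Overlaps used bedtools 2.31.1. Counting intervals are exact 95% intervals of summed reads and cover counting error only, since reads carried no molecular identifiers. The edgeR steps for the knockdown in WT were tested on simulated counts. Changes were set there only in copies with at least 100 reads, which 22.3% of the fossils had. Named were the 3 largest rises and falls per knockdown (at least 200 reads, groups apart), the 3 largest rises outside genes (at least 100 reads), the 2 largest changes each way in the other contrasts, the 10 copies with most reads, the 12 largest families, hosts and domesticated transposase genes. The fossils and lists were chosen with earlier results of these data known, and the 4 places, the distance and neighbour settings and the fossils on KAP1 regions were chosen after the values were seen.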

Additional observations from a re-analysis of the deposited data

Results flagged for a closer look

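The following differences between genotypes in the response to knockdown passed the test of the difference itself. In TET TKO against WT they were 1.14 for the MER2B of Aoah, 2.54 for Tigger5 on chromosome 9, 1.67 for the Charlie15a of Bcl2l2, -2.49 and -1.89 for the Tigger1 copies on chromosome 4, and -1.17 for the gene Pgbd5. In DNMT TKO against WT they were 4.89 for the Ricksha_0 of Slfn4, -2.67 for Charlie1a on chromosome 17, 2.54 for MER2 on chromosome 19, -1.84 for URR1B on chromosome 4 and 1.80 for Pgbd5. Among sums, the Charlie1a family over all places differed by -0.65 in DNMT TKO. Outside genes the TET TKO differences were 0.62 for RCHARR1, 1.31 for Tigger5 and 1.39 for hAT-Blackjack, and the DNMT TKO differences were -2.64 for Charlie1a, -1.26 for Tigger5 and 4.63 for the copies annotated as DNA of uncertain superfamily. The last sum read 0.14 ± 0.124 CPM in WT shEmpty and held MER124, which had no read in WT and passed the filter through the knockdown, so it is a description. The Tigger5 sums hold the chromosome 9 copy and are not separate from it. The hAT-Blackjack knockdown changes did not pass without copies near called-up LTR or LINE copies. Trim28 itself fell less in DNMT TKO than in WT, and the part of this in the DNMT TKO differences was not tested.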

How the results depend on the processing

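Depth limited single copies, with a median of 41 reads over 16 libraries. DESeq2 called 106 fossils up and 35 down in WT, 110 and 11 in TET TKO and 90 and 12 in DNMT TKO, 4 and 11 differences of knockdown effects, and 42 and 134 fossils between genotypes without knockdown. With a filter of 1 read the WT counts were 157 and 48, falls in TET TKO and DNMT TKO 19 and 22, differences 5 and 11, and genotype calls 66 and 185. With at least 48 reads, 141, 136 and 109 rose and 5 differed in TET TKO, and with at least 16 shEmpty reads 67, 46 and 41 rose. limma-voom called 63 falls in TET TKO and 32 and 70 differences, fitting only the groups compared gave 16 differences in TET TKO, and leaving out exonic fossils 6. Scaling on TE reads gave 74 falls in both knockouts, sums inside genes of -0.01, -0.18 and -0.19, an outside sum of 0.12 in DNMT TKO, and 7 families called in TET TKO; it turned URR1A (-0.14) and URR1B (-0.03) in DNMT TKO and URR1B (-0.04) and MER20 (-0.17) in TET TKO, summed over all places. The inside sum in DNMT TKO was -0.01 under RLE scaling and -0.001 away from KAP1 regions. Without copies near called-up LTR or LINE copies, chosen after seeing the data, outside sums were 0.02, -0.23 and 0.03, antisense sums -0.13, 0.01 and 0.09, and inside sums -0.05 in both knockouts. Apart from what these constructions set, the cause was not tested.

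Leaving out 1 library at a time gave 172 to 241 rises and 54 to 84 falls in WT, 178 to 276 and 17 to 42 in TET TKO, and 142 to 189 and 32 to 47 in DNMT TKO. Differences were 4 to 12 in TET TKO and 13 to 20 in DNMT TKO, and genotype calls 59 to 113 and 204 to 310. Inside sums ranged from 0.06 to 0.09, -0.03 to 0.15 and -0.03 to 0.03, outside sums from 0.33 to 0.38, 0.16 to 0.77 and 0.30 to 0.34, and antisense sums from 0.42 to 0.52, 0.91 to 1.01 and 0.51 to 0.59. Families called were 5 to 7, 4 to 12 and 9 to 11, and domesticated genes 1, 1 to 2 and 2. Without TET TKO shEmpty replicate 2 the inside sums passed in WT (0.08, edgeR adjusted p = 0.043) and TET TKO (0.15, edgeR adjusted p = 0.0086). Leaving out TET TKO shKap1 replicate 1 gave the 4 families, 23 falls and 2 domesticated genes, leaving out TET TKO shEmpty replicate 1 gave 6 families and 62 genotype calls, and without it the inside sum also passed in WT. Leaving out WT shKap1 replicate 3 gave the 54, TET TKO shEmpty replicate 1 the 178 rises, TET TKO shKap1 replicate 2 the 17, and FordPrefect was 1.19 in TET TKO without TET TKO shEmpty replicate 2 and -3.21 without replicate 1. Deviations of same-numbered libraries correlated by at most 0.0805 over TEs and 0.0996 over DNA transposon fossils. Over genes they correlated by 0.118 to 0.274 between the WT groups, 0.135 to 0.317 between WT shEmpty and DNMT TKO shEmpty, 0.0781 to 0.33 between the DNMT TKO groups and -0.00372 between the TET TKO groups, so the numbers were not taken to pair the libraries throughout. With a replicate block 220, 264 and 176 fossils rose, the outside sums were 0.36, 0.44 and 0.31, and among the family sums over all places MER5B in TET TKO (0.25) and MER58B in WT (0.20) lost their calls.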
